A study of Mus musculus with 2 samples.

Results

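Interferon-stimulated genes are genes that cells switch on when they sense an interferon, and 45 of them were followed here out of the 33696 genes counted in single cells of the mouse dura mater, the outermost membrane around the brain. The 45 genes were chosen by name, with earlier results of these data known, so values over them are a description. Each was present in the files under its symbol. Type I interferons bind the receptor made of Ifnar1 and Ifnar2, and the signal runs through a complex with Stat2 and Irf9 that binds interferon-stimulated response elements. Interferon-gamma binds the receptor made of Ifngr1 and Ifngr2 and acts through gamma-activated sites. The proteins made in turn detect viral nucleic acids, block viral entry and replication, or tag other proteins with Isg15, and a low level of the same genes is kept up in many tissues without infection. Of the 45 genes, 24 that respond mainly to type I interferon are called core genes below, among them Isg15, Irf7, Rsad2, the Ifit genes, the Oas genes and the Mx genes. The other 21 are Ifitm3, Bst2, Ifi27l2a, Samhd1, Irf1, the Gbp genes and others that are also held at a constant level in some cell types or answer to interferon-gamma as well.

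The dura came from female mice, either after a sham operation or 14 days after the jugular veins had been tied off (JVL-14), and the question was what differs in the dura once venous outflow is blocked. Strain, age, the number of mice and the time since the sham operation are not given in the sources used here. For digestion with collagenase and DNase 2 meninges went into each well, and viable single cells were then sorted. Each group is 1 library, so no difference has a replicate check, no test was made, and the 95% intervals in brackets cover counting error only. The sham library held 5495 barcodes and 33996641 unique molecular identifiers (UMIs, each standing for 1 captured RNA molecule), of which 4710 cells were retained, and the JVL-14 library 3004 barcodes, 18796260 UMIs and 2472 cells. Median depths were 4494 and 4573.5 UMIs per retained cell, and 2 barcodes occurred in both libraries, 1 of them among retained cells of both. UMIs were summed over the cells of a class and scaled to 1000000 UMIs of that class (CPM). UMIs count molecules at their 3' end, so CPM is not divided by transcript length.

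Cells were clustered without the 45 genes and 83 further interferon-induced genes, so that the classes were not defined by the genes described. The 31 clusters gave 22 classes named from marker genes, and 1 cluster stayed unnamed. Fibroblasts (1421 and 690 cells in sham and JVL-14) and macrophages (719 and 342) were the largest. Fibroblasts held their defining markers, with Col1a1 at 3258 CPM and Dcn at 7107 CPM in sham. A further cluster of 366 and 98 cells scored best for arachnoid barrier markers, with Slc47a1 at 737 CPM and Cldn11 at 337 CPM in sham. Krt8 and Krt18 were at 0 UMIs there in both libraries, and Dpp4 and Cdh1 reached 2.59 and 3.88 CPM in sham, so it is called the Slc4a10-high cluster after a leading gene. Choroid plexus cells (77 and 0) and skeletal muscle cells (248 and 3) were found almost only in sham. JVL-14 over sham ratios were formed for 13 classes that had 50 or more cells on both sides, and levels are described in 19 classes.

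Promoter sequences show which of the 45 genes hold the letters of the elements through which interferon is known to act. RefSeq promoter windows (build GRCm38.p6, 250 bases before to 50 bases after a start site) were matched by symbol for 35 of the 45 genes, in 41 windows. The core of the interferon-stimulated response element was searched as GAAANNGAA on both strands, where N is any base. It was found in 22 of the 35 genes, against 9.76% of 27025 genes in the table and 8.56% of its 32851 windows of this length. It was present in 10 of 17 core genes and in 12 of 18 others. The gamma-activated site, searched as TTCNNNGAA on both strands, was found in 11 of the 35 genes, against 9.55% of all genes and 8.30% of windows. It was present in 2 of 17 core genes and in 9 of 18 others. Such matches are a description of letters, and the 2 motifs can overlap.

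The 160 bases before the start of 6 genes are printed because the results below turn on them, with matches of either motif in capitals, read 5' to 3' along the gene. In Isg15 (chr4:156200819-156200978, minus strand) 3 overlapping matches of GAAANNGAA ran from 78 to 58 bases before the start. In Ifit3 (chr19:34583369-34583528, plus strand) 3 separate matches on the opposite strand began 155, 121 and 102 bases before it. Rsad2 (chr12:26456453-26456612, minus strand) and Gbp2 (chr3:142620503-142620662, plus strand) each had 1 on the opposite strand, beginning 119 and 58 bases before the start. In Bst2 (chr8:71537473-71537632, minus strand) 2 matches of GAAANNGAA overlapped 1 of TTCNNNGAA, between 136 and 116 bases before the start. Irf1 (chr11:53769854-53770013, plus strand) had no match of GAAANNGAA in this stretch and 1 of TTCNNNGAA from 90 to 82 bases before it.
Isg15: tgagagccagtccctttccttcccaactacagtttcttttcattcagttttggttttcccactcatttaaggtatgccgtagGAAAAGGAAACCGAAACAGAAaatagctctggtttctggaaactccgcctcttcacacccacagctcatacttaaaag
Ifit3: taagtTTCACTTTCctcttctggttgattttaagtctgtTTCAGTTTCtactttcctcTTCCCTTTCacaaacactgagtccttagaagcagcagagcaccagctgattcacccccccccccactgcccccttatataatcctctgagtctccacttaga
Rsad2: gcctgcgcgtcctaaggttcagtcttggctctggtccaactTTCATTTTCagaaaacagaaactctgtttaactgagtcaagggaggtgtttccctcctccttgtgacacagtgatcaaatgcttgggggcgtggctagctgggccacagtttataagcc
Gbp2: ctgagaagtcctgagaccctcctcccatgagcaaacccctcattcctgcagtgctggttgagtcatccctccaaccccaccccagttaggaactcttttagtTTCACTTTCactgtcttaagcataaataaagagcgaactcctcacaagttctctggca
Bst2: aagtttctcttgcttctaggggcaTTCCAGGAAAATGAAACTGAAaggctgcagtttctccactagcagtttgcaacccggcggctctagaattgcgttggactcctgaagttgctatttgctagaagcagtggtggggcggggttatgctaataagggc
Irf1: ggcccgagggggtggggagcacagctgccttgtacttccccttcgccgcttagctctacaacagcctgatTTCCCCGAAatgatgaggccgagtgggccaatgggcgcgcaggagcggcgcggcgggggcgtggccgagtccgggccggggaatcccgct

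Summed over the 45 genes, monocytes held the highest level in sham, 9675 CPM, followed by blood endothelial cells (7338 CPM), macrophages (6861 CPM), the Slc4a10-high cluster (4675 CPM), dendritic cells (4435 CPM) and fibroblasts (4029 CPM). The lowest sums were those of skeletal muscle (86 CPM), pinealocytes (110.3 CPM) and choroid plexus cells (294 CPM). These sums are led by Ifitm3, which restricts the entry of enveloped viruses into cells and was counted at 1217 CPM over all retained sham cells and 783 CPM over those of JVL-14. The order of classes was different over the 24 core genes alone, where blood endothelial cells (1811 CPM), the Slc4a10-high cluster (1562 CPM), macrophages (1316 CPM) and fibroblasts (1239 CPM) led. Monocytes, erythroid cells and dendritic cells followed with 840.4, 821 and 807 CPM. Monocytes thus stood first over all 45 genes through genes outside the core list.

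Among the entry and replication inhibitors, Ifitm3 reached 4585 CPM (4459 to 4713) in sham monocytes and 4072 CPM (3874 to 4277) in those of JVL-14. Blood endothelial cells followed in sham with 2417 CPM (2267 to 2574), while B cells held 37.6 CPM and skeletal muscle 12.3 CPM. Bst2, the membrane tether that holds budding virus particles to the cell, was highest in sham in macrophages at 997 CPM (961 to 1035), and in JVL-14 in monocytes at 974 CPM (879 to 1077), an interval that overlaps that of macrophages there (822 to 924 CPM). Samhd1, which breaks down the deoxynucleotides that viruses need, was highest in monocytes, with 574 CPM in sham against 591 CPM in JVL-14, intervals that overlap. Slfn5, a Schlafen family gene, led in sham blood endothelial cells at 556 CPM (485 to 634). Skeletal muscle was low in all 4, with 6.14 CPM of Bst2, 3.07 CPM of Samhd1 and no UMI of Slfn5.

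Ifi27l2a, a small mitochondrial protein gene, was high in myeloid and B lineage cells, at 1993 CPM in sham against 2264 CPM in JVL-14 for monocytes, 1532 CPM in sham against 1408 CPM in JVL-14 for macrophages and 859 CPM in sham against 1138 CPM in JVL-14 for B cells. Sham fibroblasts held only 146 CPM of it. Among the transcription factors, Irf7, which amplifies type I interferon production, had its highest sham level in dendritic cells at 161 CPM (137 to 187), overlapping macrophages at 145 CPM (132 to 160.3), and its highest JVL-14 level in monocytes at 209.7 CPM (167 to 260.3). In dendritic cells 76.8% of its sham UMIs lay in 5 cells. Irf1, which answers to interferon-gamma, led in sham blood endothelial cells at 379 CPM (321 to 444), and Sp100, a component of nuclear bodies, in B cells at 249 CPM in sham against 377 CPM in JVL-14. The GTPase Gbp2 had its highest sham level in fibroblasts at 121 CPM (114 to 128), and its highest JVL-14 level in T, natural killer or innate lymphoid cells at 119 CPM (84 to 163).

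Isg15, Ifit3 and Ifit1, the core genes with the highest levels over all sham cells, were highest there in the Slc4a10-high cluster, followed by fibroblasts. Isg15, the ubiquitin-like protein that is attached to other proteins, stood at 472 CPM (450.1 to 494) in the former and 402 CPM (389 to 416) in the latter, ahead of macrophages at 184 CPM (169 to 201). The RNA-binding Ifit3 was at 267 CPM (251 to 284) and 238 CPM (228 to 248) and its partner Ifit1 at 199 CPM (185 to 213) and 132 CPM (125 to 140.0), so the intervals of the leading pair were apart for all 3 genes. This order holds for whole classes only. In sham fibroblast cluster 1 (led by Myoc and Snhg11) Isg15, Ifit3 and Ifit1 were at 726, 428 and 269 CPM. Cluster 12 (led by Gsta4 and Ptgds) held 678, 436 and 142 CPM of them. Isg15 was at 294, 64.7 and 39.1 CPM in the sham fibroblast clusters 0, 19 and 21. In JVL-14 erythroid cells led for Isg15 at 449 CPM. JVL-14 fibroblasts held Ifit3 and Ifit1 at 198 and 149 CPM, or 153 and 103 CPM without the 1 cell described below, beside 149.5 CPM of Ifit3 in macrophages and 122 CPM of Ifit1 in olfactory-type neurons. The Oas family, named for enzymes that make the messenger of the RNase L pathway, was low. In the sham class where each was highest, Oasl2 was at 88.4 CPM (Slc4a10-high cluster) and Oas1a at 62.6 CPM (monocytes). Oas3 was at 29.6 CPM (neutrophils), Oasl1 at 26.8 CPM (macrophages) and Oas2 at 18.6 CPM (macrophages).

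**Figure D1:**
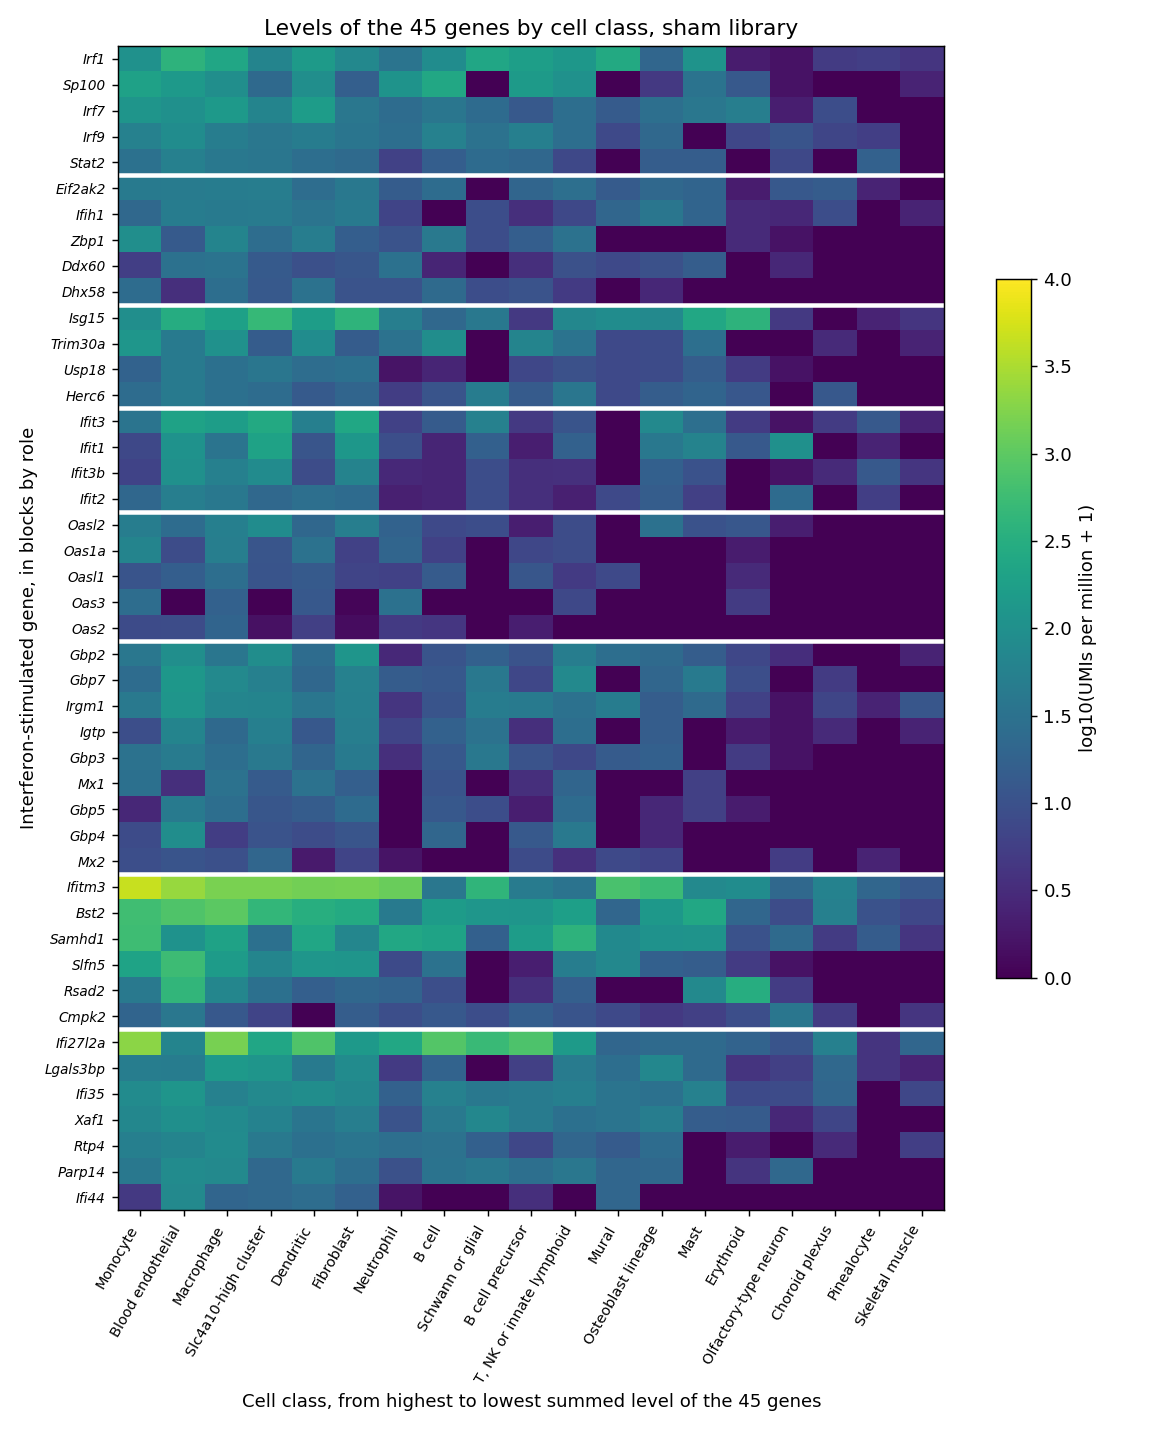
Level of each of the 45 genes (rows, in blocks by role) in 19 cell classes of the sham library (columns), as log10 of CPM + 1 on a colour scale from 0 to 4. Ifitm3 and Ifi27l2a give the brightest squares, in the monocyte column at the left, and the right-hand columns are dark apart from single genes. Isg15, Ifit3 and Ifit1 are brightest in the Slc4a10-high cluster and fibroblasts, and Ifit3b and Ifit2 in blood endothelial cells.

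Some core genes stood apart from the rest in particular classes, which were picked after their values were seen. Erythroid cells held Isg15 at 382 CPM (345 to 423) in sham and 449 CPM (415 to 485) in JVL-14, and Rsad2 (viperin, which makes a chain-terminating nucleotide) at 313 CPM (279 to 350.0) and 318 CPM (289.6 to 348). Ifit3 was at 4.02 and 4.12 CPM in the same cells, and Ifit1 at 12 and 11.7 CPM. Rsad2 was found in 61 of 80 sham and 84 of 108 JVL-14 erythroid cells, so that it was spread over most cells of both libraries. With each cell drawn down to 1500 UMIs it was found in 30.3% and 29.1% of erythroid cells, against none of 135 sham muscle cells, a count that allows up to 2.22% of cells with a UMI (3 counts of the total), which is no limit on cells that use the gene. Olfactory-type neurons held Ifit1 at 100.1 CPM in sham against 122 CPM in JVL-14 and Cmpk2, a mitochondrial nucleotide kinase, at 35.9 CPM in sham against 37.6 CPM in JVL-14. Isg15 was at 3.53 and 0.637 CPM in those neurons and Ifit3 at 0.589 CPM in sham and 0 UMIs in JVL-14. Sham blood endothelial cells held Rsad2 at 429 CPM (367 to 498), found in 57 of 169 cells. The erythroid and neuronal patterns were seen in both libraries, while JVL-14 had 45 blood endothelial cells and no level is given for them.

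The UMIs of many core genes were held by few cells. In sham, the 1% of cells with most of a gene's UMIs held 46.6% of those of Isg15, 59.2% of Ifit3, 59.3% of Rsad2 and 70.2% of Mx1, a GTPase that traps viral nucleocapsids. The corresponding share was 12.7% for Ifitm3, 14.9% for Samhd1 and 22.3% for Bst2. Core genes and the others overlapped in this, with examples named after their values were seen. Xaf1 and Rtp4 of the core list were at 21.3% and 25.5%, and Gbp4 and Gbp5 outside it at 63.3% and 46.8%. A gene with few UMIs has a high share in any case, but in sham Isg15 and Ifit3 were counted more often than Samhd1 and Slfn5 and were still held by fewer cells. In JVL-14 the shares were 47.6% for Isg15, 65% for Ifit3 and 14.2% for Ifitm3. With each cell drawn down to 1500 UMIs, Isg15 was found in 16.2% of sham and 12.8% of JVL-14 fibroblasts, against 1.48% of sham muscle cells. The part of free RNA in these shares was not tested. The genes also occurred in the same cells. Among fibroblasts drawn down to 1500 UMIs, the 13 sham cells with Rsad2 held a mean of 7.46 other core genes, against 0.687 in cells without it, and for Irf7 the means were 4.49 and 0.604. Isg15 was looser, since 76 of 195 sham fibroblasts with it held no other core gene.

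**Figure D2:**
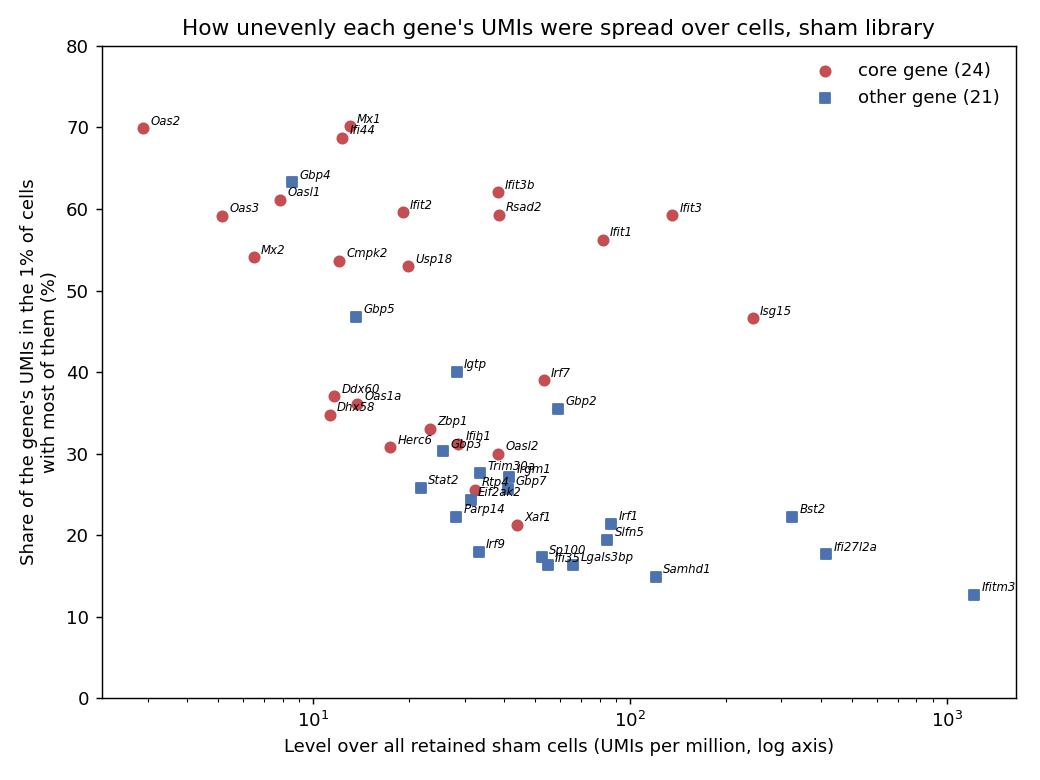
For each of the 45 genes, the level over all retained sham cells (x axis, CPM, log scale) against the share of its UMIs held by the 1% of cells with most of them (y axis, %), with core genes as red circles and the others as blue squares. Isg15 (46.6%) and Ifit3 (59.2%) lie above Bst2 (22.3%) and Samhd1 (14.9%), genes of like level.

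Cells in which at least 5 of the 24 core genes had a UMI after drawing every cell down to 1500 UMIs are called interferon-high here. They are the upper end of a range and not a cell type: 172 sham cells lay just below the limit with 3 or 4 core genes. They made up 133 of 3876 cells in sham (3.43%, 2.88% to 4.05%) and 45 of 2118 cells in JVL-14 (2.12%, 1.55% to 2.83%), a ratio of 0.619 (0.431 to 0.874). In sham these 3.43% of cells held 50.5% of all core UMIs. Drawing down left out 834 sham and 354 JVL-14 cells with fewer UMIs, and without it the shares were 11.5% and 9.14%. The mixture of classes differs between the libraries, so shares within classes follow.

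Interferon-high cells were spread over stromal, myeloid and endothelial classes. In the Slc4a10-high cluster they were 27 of 358 cells in sham (7.54%, 5.03% to 10.8%) and 2 of 98 cells in JVL-14 (2.04%, 0.248% to 7.18%), and in fibroblasts 47 of 1206 cells in sham (3.90%, 2.88% to 5.15%) and 11 of 579 cells in JVL-14 (1.90%, 0.952% to 3.37%). The fibroblast ratio was 0.487 (0.228 to 0.954), and it lay between 0.228 and 0.627 over 9 other settings. Its interval reached past 1 with another draw (0.572, 0.292 to 1.05), drawn down to a greater depth (0.584, 0.313 to 1.03), with at least 8 core genes (0.613, 0.177 to 1.73), with at most 5% mitochondrial UMIs (0.608, 0.223 to 1.44), without doublet removal (0.415, 0.124 to 1.10) and with the 45 genes kept among the variable genes. The ratio in the Slc4a10-high cluster, 0.271 (0.0312 to 1.08), rests on 2 JVL-14 cells and was 0.498 with another draw, 0.556 at the greater depth and 0.703 with at least 3 core genes. Without drawing down, the shares were 26.2% in sham against 23.5% in JVL-14 in that cluster, 11.5% against 8.70% in fibroblasts and 16.4% against 16.1% in macrophages. In macrophages they were 32 of 461 cells in sham (6.94%, 4.80% to 9.66%) and 17 of 235 cells in JVL-14 (7.23%, 4.27% to 11.3%), a ratio of 1.04 (0.543 to 1.93). Sham blood endothelial cells had 8 of 104 (7.69%), dendritic cells 6 of 95 (6.32%) and monocytes 5 of 120 (4.17%). None was found among 135 sham muscle cells, which allows a share of up to 2.22% by the rule of 3 counts of the total and 2.70% by the exact bound, nor among 169 sham and 186 JVL-14 olfactory-type neurons, which allows up to 1.78% and 1.61% by that rule and 2.16% and 1.96% by the exact bound. Erythroid cells held Isg15 and Rsad2 but had 0 interferon-high cells of 76 in sham and 1 of 103 in JVL-14, with most of their UMIs taken by haemoglobin genes.

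**Figure D3:**
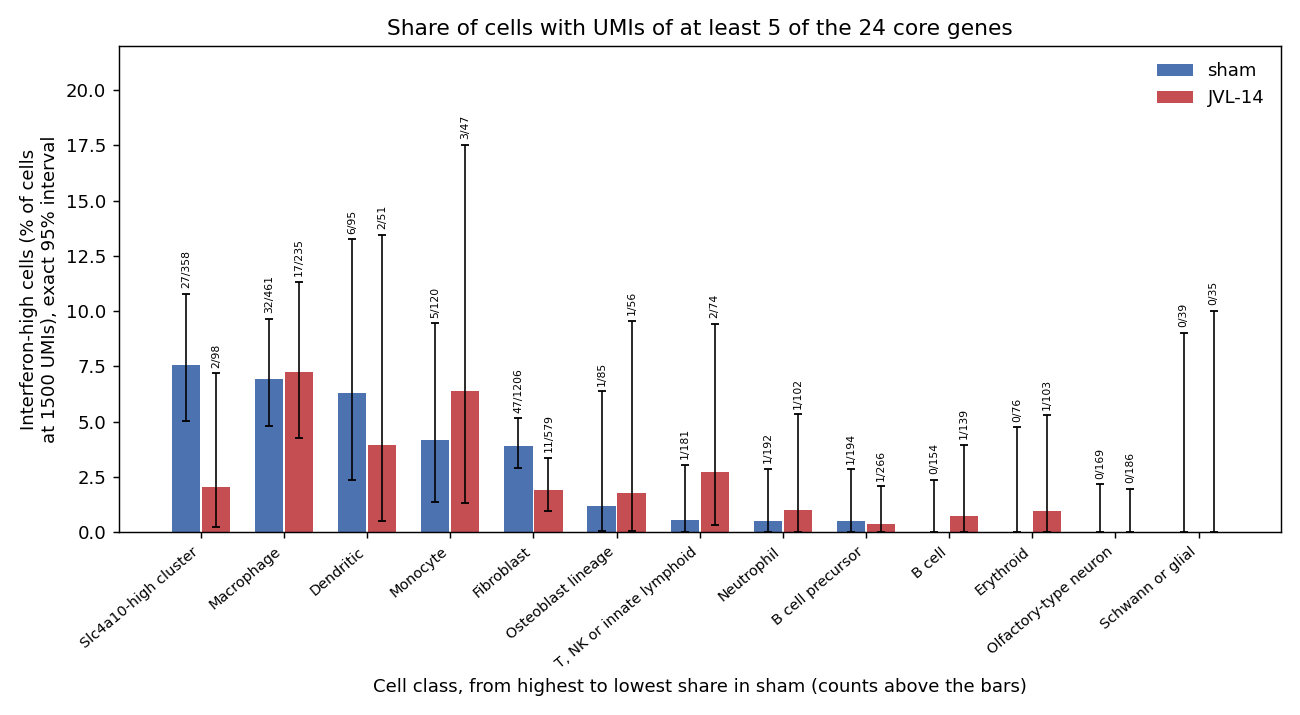
Share of interferon-high cells (y axis, % of cells drawn down to 1500 UMIs) in the 13 compared classes (x axis), for sham in blue and JVL-14 in red, with exact Clopper-Pearson 95% intervals and the counts above them. The bars of the Slc4a10-high cluster and fibroblasts are lower in JVL-14, those of macrophages are level, and the intervals overlap in every class.

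The border between fibroblasts and the Slc4a10-high cluster bears on these shares. In sham, 27 interferon-high cells lay in the Slc4a10-high cluster, 23 in fibroblast cluster 1 (led by Myoc and Snhg11) and 19 in fibroblast cluster 12 (led by Gsta4 and Ptgds), out of 133. These clusters share Slc4a10, at 888, 493 and 446 CPM, against 54.6 CPM in the tendon-like cluster 19 and 24.6 CPM in cluster 21. When the 45 genes were kept among the variable genes, 9 and 1 interferon-high cells were among the fibroblasts of sham and JVL-14, a ratio of 0.228 (0.00519 to 1.64). Pooling fibroblasts with the Slc4a10-high cluster, a choice made after seeing the data, gave 74 of 1564 sham cells (4.73%) and 13 of 677 JVL-14 cells (1.92%), a ratio of 0.406 (0.206 to 0.737). Over the other 6 ways of filtering and clustering that were run, the pooled ratio lay between 0.405 and 0.550. The pooled log2 ratio of the Isg15 level was -0.73 and lay between -0.76 and -0.60 over the same 6. The -0.76 came with each library clustered alone, where the pool held 489 retained JVL-14 cells against 788 in the main setting.

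Interferon-high cells also held the other genes of the response, which did not enter their choice. In fibroblasts, 20 of the 21 genes outside the core list were at least 1.5-fold higher in interferon-high than in other cells of both libraries, with a median of 8.31-fold in sham and 9.74-fold in JVL-14. Bst2 was at 1781 against 199 CPM in sham, Ifi27l2a at 982 against 97.4 CPM and Gbp2 at 699 against 87.2 CPM. Of 50 further interferon-induced genes with counts, 42 were at least 1.5-fold higher in both libraries, such as the chemokine Cxcl10 (1251 against 57.4 CPM in sham), named after its values were seen. In macrophages 17 of 20 genes outside the core list with counts were at least 1.5-fold higher in both libraries, with medians of 3.68-fold and 3.18-fold. No share over all genes is given beside these counts of higher genes, so they have no background. The JVL-14 side of the fibroblast values rests on 11 interferon-high cells. Interferon-high fibroblasts were deeper, with a median of 8165 against 6410 UMIs in sham and 10502 against 6298.5 UMIs in JVL-14. Leukocyte genes summed to 832 against 324 CPM in sham and 138 against 233 CPM in JVL-14. The part of depth and of leukocyte genes in the result was not tested.

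In fibroblasts most of the measured genes were somewhat lower in JVL-14. A gene is called measured in a class when its mean CPM and its summed count are both at least 20, and past the fold when its log2 ratio, with 0.5 added to each count, reaches 1.5-fold. Of 30 measured genes, 26 had a lower level in JVL-14, as had 46.2% of all genes, and their median log2 ratio was -0.27, beside 0.02 over all 6259 genes measured in fibroblasts. The other 15 of the 45 were too low in fibroblasts for a ratio. Past the fold, 3 of the 30 were lower, beside 2.7% of all measured genes, and 1 was higher, beside 1.02%. Over the alternatives in filtering, clustering and scaling the lower count lay between 1 and 16 and the higher count between 0 and 4. The 16 came with each library clustered alone, which compared unlike cells. There 235 JVL-14 fibroblasts were in a tendon-like cluster and 49 in a cluster led by Apod, while sham had further fibroblast clusters. Without doublet removal or at Leiden resolution 0.5, 1 was lower and 3 were higher. In a sum over cells, fewer cells that use a gene and fewer molecules per cell cannot be told apart. Ifi27l2a was counted at 146 CPM in sham against 88 CPM in JVL-14 (ratio 0.602, 0.535 to 0.677). Gbp2 was at 121 CPM in sham against 73.1 CPM in JVL-14 (ratio 0.604, 0.530 to 0.687). Irf7 was at 38 CPM in sham against 24 CPM in JVL-14 (ratio 0.633, 0.501 to 0.793).

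The other genes lay closer together. Isg15 was at 402 CPM in sham against 277 CPM in JVL-14 (ratio 0.689, 0.644 to 0.737), just inside the fold. Bst2 was at 282 CPM in sham against 222 CPM in JVL-14 (ratio 0.785, 0.727 to 0.847), Ifitm3 at 1436 CPM in sham against 1181 CPM in JVL-14 (ratio 0.823, 0.796 to 0.851) and Irf1 at 72.9 CPM in sham against 60.3 CPM in JVL-14 (ratio 0.828, 0.712 to 0.960). Stat2, which carries the type I signal, was at 22.9 CPM in sham against 21.4 CPM in JVL-14 (ratio 0.935, 0.720 to 1.21), an interval that includes equal levels. Bst2 and Ifit3 (238 CPM in sham against 198 CPM in JVL-14) came out slightly higher in JVL-14 when clusters were drawn more coarsely, at log2 ratios of 0.0047 and 0.16, and under 1 further setting each. By role, all 4 measured transcription factors, 5 of 6 measured GTPases and all 6 measured genes of the mixed group that holds Ifi27l2a had a lower level in JVL-14. Of the 4 Ifit genes, 2 were lower and 2 higher. Rsad2 was the only gene past the fold upward, at 20.6 CPM in sham against 45.9 CPM in JVL-14 (ratio 2.23, 1.81 to 2.75), and 94.8% of its JVL-14 UMIs lay in 5 cells.

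Other values moved with the fibroblast ratios. Immediate early and dissociation-linked genes had a median log2 ratio of -0.24, with 17 of 24 lower in JVL-14. All 14 leukocyte genes were detected in fibroblasts of both libraries and summed to 358 CPM in sham against 241 CPM in JVL-14. Skeletal muscle genes summed to 222 and 15.9 CPM, with 1 of 8 at 0 in each library, and the 4 haemoglobin genes to 430.1 and 1157 CPM. Their part in the ratios was not tested. The median of the measured genes was -0.27 as well when mitochondrial, haemoglobin and muscle genes were left out of the CPM.

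**Figure D4:**
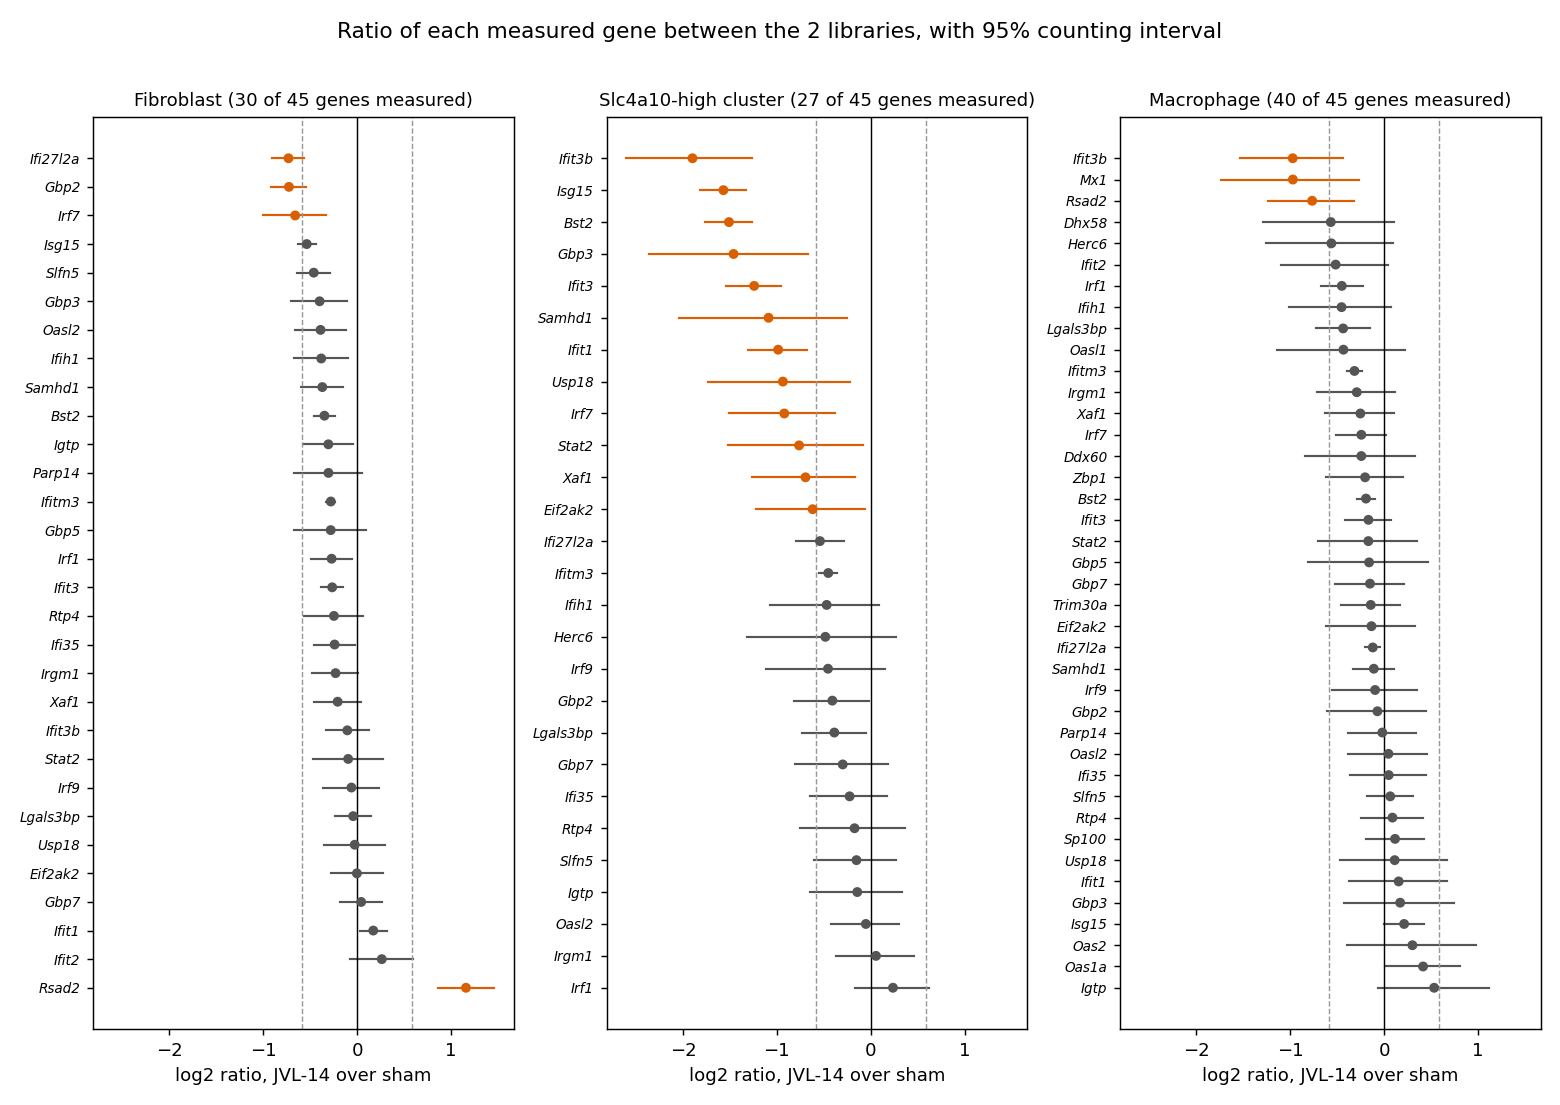
log2 ratio of JVL-14 over sham (x axis) for each measured gene (rows) in fibroblasts, the Slc4a10-high cluster and macrophages, with 95% counting intervals as bars, dashed lines at 1.5-fold and genes past the fold in orange. Most points lie left of 0 in the first and second panels, with Rsad2 alone at the right in fibroblasts, while macrophage points lie on both sides.

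Most Rsad2 UMIs of JVL-14 fibroblasts came from 1 cell. It lay in fibroblast cluster 12 and held all 26 UMIs of Ifnb1, the gene of interferon-beta, that were counted in retained JVL-14 cells, and sham had 1 Ifnb1 UMI, in a macrophage. It was singled out after its values were seen. The cell had 11196 UMIs and 3068 genes, and the 45 genes gave 1457 UMIs, 13% of its total, with 42 of the 45 and 21 of the 24 core genes present. It held 161 UMIs of Rsad2, 84.3% of all in JVL-14 fibroblasts, 193 of Ifit1, 187 of Ifit3, 171 of Isg15 and 63 of Mx1. The chemokines Cxcl10 and Ccl5, which draw T cells, had 223 and 182 UMIs, or 52.5% and 91% of the class. Fibroblast markers were sparse, with 2 UMIs of Col1a1, 1 of Col1a2 and 0 of Dcn, Lum and Pdgfra, and the leukocyte genes Ptprc and Lyz2 were at 0. It held 41 UMIs of Igfbp5, 34 of Ecrg4, 9 of Slc4a10 and 3 of Slc47a1.

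Without this cell the fibroblast median was -0.38 over 26 measured genes, 7 were lower past the fold beside 2.88% of all genes, and 0 were higher beside 1.02%. The log2 ratio of Rsad2 went from 1.16 to -1.49, that of Ifit1 from 0.17 to -0.36 and that of Isg15 from -0.54 to -0.76. Without the 5 cells with most UMIs of the 45 genes in each library, 9 of 25 were lower, beside 2.86% of all genes, and the median was -0.43. A fixed 5 is a larger share of the 690 JVL-14 than of the 1421 sham fibroblasts, which can in itself lower JVL-14 ratios. The same limit holds wherever top cells are left out of a class with fewer JVL-14 cells. Within clusters, the medians were -0.59 in cluster 0 (led by Inmt and Ccl19, 15 of 29 genes lower past the fold, beside 7.56% of all) and -0.53 in cluster 1 (12 of 33, beside 4.10%). They were 0.32 in the tendon-like cluster 19 and 0.16 in cluster 21 (led by Ccl11 and Apod). Without the 5 top cells of each library the medians of clusters 0 and 1 were -0.52 and -0.69. Those of clusters 19 and 21 were 0.09 and -0.25, so the values of clusters 19 and 21 moved with few cells. Cluster 19 had 362 sham and 175 JVL-14 cells and cluster 21 had 141 and 51, so the cut was unequal and its part cannot be told apart. Cluster 12 had 0.19 with the cell and -0.77 over 27 measured genes without it, when Isg15 went from 534 to 205 CPM in JVL-14, below the 678 CPM of sham. Of these 27 genes 15 were then lower past the fold, beside 9.45% of all genes in that cluster. Without the 5 top cells of each library its median was -0.51, with 9 of 22 lower beside 9.66% of all genes.

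**Figure D5:**
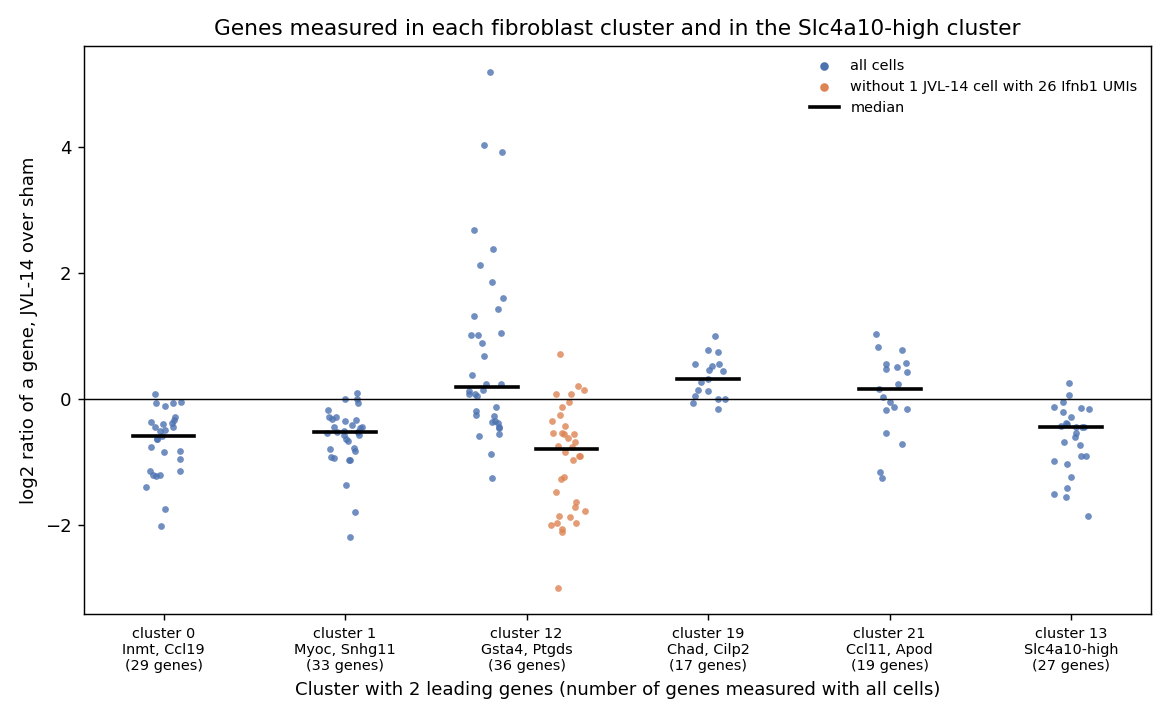
log2 ratio of JVL-14 over sham (y axis) of each gene measured with all cells in the 5 fibroblast clusters and the Slc4a10-high cluster (x axis), as points with the median as a black bar, in blue for all cells and in orange for cluster 12 without the JVL-14 cell that held 26 Ifnb1 UMIs. Over the same 36 genes the cluster 12 median goes from 0.19 to -0.80.

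In the Slc4a10-high cluster 25 of 27 measured genes were lower in JVL-14, with a median log2 ratio of -0.45 beside 0.05 over all genes. Past the fold, 12 were lower, beside 4.63% of all measured genes, and 0 were higher, beside 5.34%. Ifit3b was at 83.5 CPM in sham against 22.4 CPM in JVL-14 (ratio 0.268, 0.164 to 0.417) and Isg15 at 472 CPM in sham against 159 CPM in JVL-14 (ratio 0.337, 0.283 to 0.398). Bst2 was at 446 CPM in sham against 157 CPM in JVL-14 (ratio 0.351, 0.295 to 0.416), and the others past the fold were Gbp3, Ifit3, Samhd1, Ifit1, Usp18 (the protease that takes Isg15 off and damps the receptor), Irf7, Stat2, Xaf1 and Eif2ak2 (the kinase PKR). All 11 measured core genes were lower, with a median of -0.90. Only Irgm1 (63.6 CPM in sham against 66.1 CPM in JVL-14, ratio 1.04, 0.774 to 1.38) and Irf1 (63.3 CPM in sham against 74.6 CPM in JVL-14, ratio 1.18, 0.890 to 1.54) were higher, and their intervals include equal levels. The JVL-14 side rests on 98 cells: 84% of its Ifit3 UMIs and 44.3% of its Isg15 UMIs lay in 5 cells, against 41.1% and 27.9% in sham. Immediate early genes had a median of -0.04 here and leukocyte genes summed to 652 and 492 CPM, and their part was not tested. Under 5 of the 6 other ways of filtering and clustering no such cluster was named, so no ratio is given there. With at most 5% mitochondrial UMIs, where it was named, its median was -0.06. Of 36 measured genes 5 were then lower past the fold, beside 4.86% of all genes, and 7 higher, beside 5.26%.

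In macrophages, the class with the most measured genes, ratios lay on both sides of 1. Of 40 measured genes 28 were lower in JVL-14, with a median of -0.15 beside -0.01 over all genes. Past the fold 3 were lower, beside 4.68% of all genes, and 0 were higher, beside 3.77%. The 3 were Ifit3b at 54 CPM in sham against 27.5 CPM in JVL-14 (ratio 0.509, 0.344 to 0.736), Mx1 at 31.4 CPM in sham against 16 CPM in JVL-14 (ratio 0.509, 0.301 to 0.827) and Rsad2 at 67.5 CPM in sham against 39.7 CPM in JVL-14 (ratio 0.587, 0.424 to 0.802), and in each between 33.8% and 63.5% of UMIs lay in 5 cells. Isg15 was at 184 CPM in sham against 214 CPM in JVL-14 (ratio 1.16, 0.998 to 1.34) and Irf7 at 145 CPM in sham against 123 CPM in JVL-14 (ratio 0.845, 0.699 to 1.02), intervals that include equal levels. Gbp2 (36.1 CPM in sham against 34.3 CPM in JVL-14), Ifit3 (168 CPM in sham against 149.5 CPM in JVL-14) and Stat2 (38.6 CPM in sham against 34.3 CPM in JVL-14) had intervals that include equal levels too. Slightly lower, with intervals apart from 1, were Ifitm3 at 1558 CPM in sham against 1251 CPM in JVL-14 (ratio 0.803, 0.758 to 0.850), Ifi27l2a at 1532 CPM in sham against 1408 CPM in JVL-14 (ratio 0.919, 0.870 to 0.971), Bst2 at 997 CPM in sham against 872 CPM in JVL-14 (ratio 0.874, 0.815 to 0.937) and Irf1 at 234 CPM in sham against 171 CPM in JVL-14 (ratio 0.731, 0.625 to 0.852). The 5 measured nucleic acid sensors were all lower in JVL-14 and 3 of 4 measured Oas genes higher, none past the fold. The count of lower genes lay between 1 and 7 over the alternatives and that of higher genes between 0 and 5. With cells drawn down to 1500 UMIs 2 of 39 were lower, beside 9.76% of all genes, and 5 higher, beside 11.4%. Immediate early genes had a median of 0.11 in the same cells, and skeletal muscle genes summed to 327 and 9.92 CPM, with 1 and 3 of 8 at 0. Their part was not tested.

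Other leukocytes held fewer measured genes and fewer cells. In T, natural killer or innate lymphoid cells 10 of 24 were higher past the fold, beside 13.2% of all genes, and 1 lower, beside 13.1%, with a median of 0.43 beside 0.03. Ifit3 was at 10.1 CPM in sham against 43.7 CPM in JVL-14 (ratio 4.32, 1.69 to 11.9) and Ifit1 at 16.5 CPM in sham against 68.7 CPM in JVL-14 (ratio 4.17, 2.01 to 9.02), each with all its JVL-14 UMIs in 5 or fewer of 75 cells. Without the 5 cells with most UMIs in each library the log2 ratio of Ifit1 was -0.04 and the median was -0.09. These 5 are a larger share of the 75 JVL-14 than of the 190 sham cells, which can in itself lower the ratios. The lowest ratios there were those of Irgm1 (30.4 CPM in sham against 18.7 CPM in JVL-14, ratio 0.617, 0.206 to 1.55) and Ifi27l2a (151 CPM in sham against 112 CPM in JVL-14, ratio 0.746, 0.499 to 1.09), whose intervals include equal levels.

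B cell precursors had 12 measured genes, all lower in JVL-14, of which 7 were past the fold beside 12.7% of all genes, at a median of -0.60 beside -0.07. Ifitm3 was at 44.6 CPM in sham against 14.2 CPM in JVL-14 (ratio 0.317, 0.175 to 0.561) and Bst2 at 121 CPM in sham against 45.3 CPM in JVL-14 (ratio 0.376, 0.270 to 0.520), while the highest ratios were those of Ifi35 (44.6 CPM in sham against 42.5 CPM in JVL-14) and Ifi27l2a (754 CPM in sham against 653 CPM in JVL-14). The median was -0.0191 when each library was clustered alone, and the Ifitm3 log2 ratio 0.24 when cells were drawn down to 1500 UMIs. In the same cells leukocyte genes summed to 5836 CPM in sham against 4615 CPM in JVL-14, with 4 of 10 measured ones lower past the fold, and skeletal muscle genes to 204 and 21.96 CPM, with 2 and 6 of 8 at 0. Immediate early genes had a median of 0.38, with 6 higher past the fold. Cluster 11, led by Vpreb1a and Igll1 and holding the division genes Top2a and Pclaf, made up 52 of the 216 precursors in sham against 106 of the 285 in JVL-14. The part of these values in the ratios was not tested. Mature B cells had 2 of 19 lower beside 6.69% and 5 higher beside 22.3% of all genes, with a median of 0.30 beside 0.26, so that the 19 genes lay near all genes. Irgm1, a regulator of autophagy, was at 9.81 CPM in sham against 39.5 CPM in JVL-14 (ratio 4.02, 1.53 to 12.4) and Parp14, an ADP-ribosyltransferase, at 32.7 CPM in sham against 79 CPM in JVL-14 (ratio 2.41, 1.36 to 4.40), and Slfn5 (31.1 CPM in sham against 17.5 CPM in JVL-14) and Ifitm3 (37.6 CPM in sham against 21.9 CPM in JVL-14) were lowest in ratio.

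Dendritic cells had 3 of 30 lower beside 8.43% and 3 higher beside 9.24%, with Irf7 at 161 CPM in sham against 80.7 CPM in JVL-14 (ratio 0.502, 0.349 to 0.708), the RNA helicase Dhx58 at 31.6 CPM in sham against 13.5 CPM in JVL-14, Gbp2 at 24.9 CPM in sham against 75 CPM in JVL-14 (ratio 3.01, 1.79 to 5.15) and Gbp5 at 13.4 CPM in sham against 26.9 CPM in JVL-14. In JVL-14, 94.9% of the Gbp2 UMIs lay in 5 of 52 cells, and its log2 ratio was -0.36 without the 5 cells with most UMIs of the 45 genes in each library. Monocytes had 1 of 32 lower beside 8.45% and 4 higher beside 13%. There Cmpk2, the nucleotide kinase, was at 18.2 CPM in sham against 38.4 CPM in JVL-14 (ratio 2.11, 1.01 to 4.34), Stat2 at 29.9 CPM in sham against 61.4 CPM in JVL-14 (ratio 2.05, 1.16 to 3.57), Irgm1 at 40.8 CPM in sham against 28.1 CPM in JVL-14 and Gbp2 at 37.2 CPM in sham against 15.3 CPM in JVL-14 (ratio 0.412, 0.143 to 0.977).

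Neutrophils had 2 of 14 lower beside 7.8%, Ifi27l2a (247 CPM in sham against 142 CPM in JVL-14, ratio 0.574, 0.459 to 0.713) and Isg15 (49.7 CPM in sham against 30.5 CPM in JVL-14, ratio 0.614, 0.368 to 0.987), and 2 higher beside 7.71%, the helicase Ddx60 (30.2 CPM in sham against 55.7 CPM in JVL-14, ratio 1.85, 1.19 to 2.85) and Irf7 (24.5 CPM in sham against 41.1 CPM in JVL-14, ratio 1.68, 1.01 to 2.76). Osteoblast lineage cells had 2 of 22 lower beside 11.7% and 8 higher beside 11.8%, with Irgm1 at 14.2 CPM in sham against 52.6 CPM in JVL-14 (ratio 3.70, 1.60 to 9.57), Stat2 at 14.2 CPM in sham against 36.6 CPM in JVL-14, Irf7 at 28.4 CPM in sham against 13.7 CPM in JVL-14 and the sensor Ifih1 at 35.5 CPM in sham against 22.9 CPM in JVL-14. In the same cells leukocyte genes summed to 3863 CPM in sham against 121 CPM in JVL-14, with 5 of 6 measured ones lower past the fold and 4 of 14 at 0 in JVL-14, and the 4 haemoglobin genes to 258 and 14539 CPM, all higher past the fold. Their part in these counts was not tested. With cells drawn down to 1500 UMIs the osteoblast log2 ratio of Irgm1 was -2.21, from the 23 JVL-14 UMIs it had in all. Erythroid cells, olfactory-type neurons and Schwann or glial cells had 4, 5 and 5 measured genes and no median is given.

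The genes that make, receive and damp interferon were looked at as a list of their own. Of 21 interferon ligand genes, the 14 listed forms of interferon-alpha had no UMI in retained cells of either library, and Ifnb1 was limited to the UMIs given above. Ifng had 15 UMIs in 8 sham cells and 24 in 9 JVL-14 cells, of which 12 and 17 lay in T, natural killer or innate lymphoid cells. The receptor chain Ifnar1 was at 27.3 and 31 CPM in sham and JVL-14 fibroblasts (ratio 1.14, 0.911 to 1.42) and Ifnar2 at 168 and 182 CPM (ratio 1.08, 0.992 to 1.19). Ifngr1 was at 144 and 96.4 CPM (ratio 0.669, 0.596 to 0.749) and the kinase Jak2 at 33.5 and 20.0 CPM (ratio 0.596, 0.461 to 0.763). Of the 8 measured receptor and transducer genes in fibroblasts, Jak2 alone was past the fold, and none of 4 measured sensing genes or 5 measured inhibitors was. In macrophages Ifngr2, the second chain of the interferon-gamma receptor, was at 120.4 and 189 CPM (ratio 1.57, 1.33 to 1.86) and Socs3, an inhibitor of cytokine signalling, at 634 and 389.8 CPM (ratio 0.615, 0.556 to 0.679). Ifnar1 (78.6 and 73.2 CPM), Ifnar2 (303 and 289.9 CPM) and Ifngr1 (429.9 and 423 CPM) of macrophages were within the fold.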

How the data were processed

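Dura cells of 1 sham and 1 JVL-14 library were profiled with a 10x Genomics 3' kit, with 20000 cells loaded. Per the file headers the authors made the deposited count matrices, raw UMI counts per gene and cell barcode, with Cell Ranger 8.0.0, and the submitters' processing notes name build mm39; the gene annotation and further options are not given in the sources used here. Barcodes with under 200 genes (266 sham, 244 JVL-14) or more than 10% mitochondrial UMIs (278, 152) were dropped. Scrublet's own threshold marked 0.0765% and 0.181% of barcodes, so the highest 5% of scores (241, 136) were removed instead. Cells of both libraries were clustered together (scanpy 1.11.5, Python 3.11, 2000 variable genes, 30 components, 15 neighbours, Leiden resolution 1), with the 45 genes and 83 other interferon-induced genes left out of the variable genes. Cell names were rebuilt from marker genes, so differences in class sizes from other work on these cells may come from that.

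UMI counts were summed per class and library and scaled to CPM. Levels have exact Poisson intervals, shares exact Clopper-Pearson intervals and ratios exact conditional binomial intervals (95%, scipy 1.17.1), all for counting error only. The limit given with a count of 0 is 3 counts of the total. Log2 ratios were formed with 0.5 added to each count, and the computation was tested on simulated data. With 1 library per group there is no test and no p-value. Classes with under 50 cells in a library, and medians over fewer than 10 measured genes, were left out. Of the 45 genes, the text names the 10 with the highest overall level, 9 fixed genes plus all past 1.5-fold in fibroblasts and macrophages, and the 2 highest and 2 lowest ratios elsewhere; the genes, lists and rules were chosen with earlier results of these data known. 1 gene that the naming rule covers is not reported here. Promoter windows came from RefSeq (GRCm38.p6) and no coordinate was carried to mm39. Alternatives changed 1 step at a time: the variable genes, cell filters, doublet removal, resolution, clustering each library alone, drawing down to other depths, the limit of core genes, the added count, the filter on low genes, the CPM total, means over cells or clusters, and leaving out top cells.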

Additional observations from a re-analysis of the deposited data

How the results depend on the processing

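No paired analysis was possible because each group has 1 library, and no replicate could be left out. The median log2 ratio stayed below 0 under all 16 alternatives in fibroblasts (-0.73 to -0.05) and macrophages (-0.20 to -0.01), and under all 11 that gave a value in the Slc4a10-high cluster (-0.82 to -0.06). Of these 11 only the limit of 5% mitochondrial UMIs filtered and clustered anew, giving -0.06, and the others reused the cluster's cells. The mean within clusters and leaving out the Ifnb1 cell could not change its value, since it is 1 cluster without that cell. Leaving out that cell could not change the macrophage value either. With each library clustered alone it was -0.73 in fibroblasts and -0.0191 in B cell precursors. There the JVL-14 fibroblasts were 235 cells of a tendon-like cluster and 49 of a cluster led by Apod. Sham also had clusters of 420 cells led by Col6a5 and 231 led by Ptgds and Gsta4, so this setting compared unlike fibroblasts. Without the 5 top cells of each library the median went from 0.43 to -0.09 in T, natural killer or innate lymphoid cells. There 5 is a larger share of the 75 JVL-14 than of the 190 sham cells. The fibroblast count lower past the fold, 3 of 30 measured genes in the report beside 2.7% of all genes, was 1 of 21 with the 45 genes kept among the variable genes (2.89% of all genes there), 1 of 26 without doublet removal (2.88%), 1 of 27 at Leiden resolution 0.5 (3.47%), 5 of 27 with at most 5% mitochondrial UMIs (3.45%), 5 of 27 with cells drawn down to 1500 UMIs (5.40%), 7 of 45 with no filter on low genes (12.6%), 7 of 26 without the Ifnb1 cell (2.88%, chosen after seeing the data), 9 of 25 without the 5 top cells (2.86%) and 16 of 24 with libraries clustered alone (5.61%). The macrophage count, 3 of 40 beside 4.68%, was 1 of 22 with a filter of 50 (2.78%), 5 of 40 without doublet removal (4.65%), 5 of 45 with no filter (16.6%), 6 of 39 as a mean over cells (8.17%) and 7 of 40 as a mean within clusters (7.49%). That of the Slc4a10-high cluster, 12 of 27 beside 4.63%, was 5 of 36 with at most 5% mitochondrial UMIs (4.86%), 5 of 15 with a filter of 50 (3.31%) and 26 of 44 with no filter (13.4%). With at most 5% mitochondrial UMIs 7 of the 36 were higher past the fold (5.26% of all genes), against 0 of 27 in the report. The ratio of interferon-high shares lay between 0.228 (the 45 genes kept) and 0.627 in fibroblasts, where the interval included 1 under 6 of 9 settings, between 0.372 and 0.703 in the Slc4a10-high cluster and between 0.750 and 1.18 in macrophages.

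Directions turned for Bst2 in fibroblasts (log2 ratio 0.0244 with the 45 genes kept, 0.0047 at resolution 0.5), Ifit3 in fibroblasts (0.0405 without doublet removal, 0.16 at resolution 0.5) and Rsad2 in fibroblasts (-1.36 with at most 5% mitochondrial UMIs, -2.38 with libraries alone, -0.47 without the 5 top cells, -1.49 without the Ifnb1 cell). They also turned for Ifi27l2a in B cell precursors (0.10 without doublet removal, 0.0431 with libraries alone, 0.0805 as a mean over cells), Ifitm3 in B cell precursors (0.24 drawn down), Irgm1 in osteoblast lineage cells (-2.21 drawn down), Gbp2 in dendritic cells (-0.36) and Ifit1 in T, natural killer or innate lymphoid cells (-0.0399), the last pair without the 5 top cells. The cause was not tested, except that the Ifnb1 cell held 84.3% of the Rsad2 UMIs. The fibroblast value with libraries alone compared unlike clusters, as said above. Of 812 values of named genes under alternatives, 727 moved by less than their counting interval. Part of these could not move at all, so the number is no measure of stability. The filters on low genes do not enter a gene's own ratio. Leaving out the Ifnb1 cell changes fibroblasts only, and the mean within clusters cannot change a class of 1 cluster. No ratio could be had for the Slc4a10-high cluster under 5 alternatives, nor for dendritic cells under 3 and monocytes under 5. Depth limits genes under 20 CPM, and 1 library per group limits every comparison.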

Other observations

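A further 83 interferon-induced genes, also kept out of the clustering, gave values beside those of the 45. Fibroblasts had 28 measured, 26 lower in JVL-14 and a median log2 ratio of -0.24, the Slc4a10-high cluster had 28 measured, 27 lower in JVL-14 and a median log2 ratio of -0.43, and macrophages had 46 measured, 34 lower in JVL-14 and a median log2 ratio of -0.14. Past 1.5-fold, 2, 9 and 2 of these were lower, beside 2.7%, 4.63% and 4.68% of all genes, and 0, 0 and 1 higher, beside 1.02%, 5.34% and 3.77%, so the macrophage counts lay near or below those of all genes.

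In the macrophage cluster led by Ccl3 and Ccl4 the median of the 45 genes was -0.19, and in that led by Ccl8 and Cd209f -0.06. The summed level of the 24 core genes was 1105 CPM in sham against 926 CPM in JVL-14 in the former, and 2006 and 2175 CPM in the latter. Without the 5 cells with most UMIs of the 45 genes in each library the sums were 789 and 616 CPM in the former and 1649 and 1482 CPM in the latter, with medians of -0.15 and -0.16. These 5 are a larger share of the JVL-14 cells, 170 against 315 in sham in the former and 172 against 404 in the latter.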
